A study of Mus musculus with 6 samples.

Results

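The mitochondrial ribosomal proteins are the nuclear-encoded protein subunits of the ribosome inside mitochondria. Their genes were taken by symbol, Mrpl for the large and Mrps for the small subunit followed by a number and, where there is one, a letter. This gave 78 genes of the 10361 gene names in the deposited table, 49 Mrpl and 29 Mrps. The cells were retinal ganglion cells (RGCs), which connect the eye with the brain through the optic nerve, from wild-type C57/6NCrl mice, and their poly-A RNA had been sequenced in 3 groups of 2 libraries. RGCs of the adult control group had been transduced with AAV2 for a scramble shRNA mimic and mCherry. The adult miR-1247 group had received AAV2 for the miR-1247-5p mimic instead. RGCs of embryonic day 18 (E18) were untreated. Each adult condition was about 5000 cells from 10 pooled retinas, bound to Thy1 antibody and then sorted for mCherry, whereas about 50000 E18 cells were bound to Thy1 antibody without a sort. Age, vector, sorting and cell number therefore cannot be told apart between E18 and adult libraries. The labels give no adult age in days and do not say that the libraries of a group came from separate animals, so the spread between them may be technical.

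Mitochondria keep a small genome of their own, and their ribosome translates its messenger RNAs, which all encode core subunits of the respiratory chain and the ATP synthase. The ribosomal RNAs come from the mitochondrial genome, while every protein of the particle is made in the cytoplasm and imported. Part of these proteins descend from bacterial ribosomal proteins and part are found only in mitochondria. RGCs have long axons with unmyelinated stretches rich in mitochondria, and inherited optic neuropathies often affect the respiratory chain. Symbols do not always give the place in the particle. Mrps18a and Mrps30 sit in the large subunit, and Mrps36 is now known as a subunit of the oxoglutarate dehydrogenase complex, so that by structure 51 members are large and 26 small.

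The unit of level is FPKM (fragments normalised for transcript length and number of mapped reads), which is per length and can be compared between genes. All 78 members had a mean of at least 1 FPKM and were tested, and none was at 0 in any library once the loci of a name were summed. Their mean over the 6 libraries ran from 3.69 to 68.0 FPKM, an 18.4-fold range, with a median of 17.5 against 14.7 FPKM over all 9987 features tested. No read counts were used here and the depth behind each value is unknown. Of 22 RGC marker genes 21 were listed. Their summed level was 4319 to 4363 FPKM in control, 2719 to 2749 in miR-1247 and 6993 to 6996 FPKM in E18 libraries. At the limit for a call given below, 13 of the 21 were higher in E18 than in control and 7 lower. Their log2 differences ran from -4.85 to 3.23, and over all features 40.2% were higher and 29.8% lower. In miR-1247 against control, 1 was higher and 18 lower, where 3.53% of features were higher and 6.22% lower. No cone, microglial, endothelial, erythroid or pigment epithelial marker of the lists has an entry. Of 10 Müller glia and astrocyte markers 5 were listed, without Rlbp1, Slc1a3 and Gfap, at a summed 1063 to 1409 FPKM in control, 1713 to 1825 in miR-1247 and 167 FPKM in both E18 libraries. Of 10 amacrine markers 5 were listed, without Gad1 and Slc32a1, and summed to 675 to 716, 923 to 967 and 309 to 323 FPKM. In these lists Vim and Pax6 went the other way in E18, Vim from 1.60 and 0.635 FPKM in control to 44.5 and 41.0 FPKM, and Pax6 from 167 and 169 to 226 and 239 FPKM. The 2 rod markers tested summed to 46.1 and 44.6 FPKM in control, 26.9 and 24.3 in miR-1247, and 6.41 and 5.30 FPKM in E18. The 2 progenitor markers tested summed to 19.5 and 18.6, 19.6 and 22.4, and 52.9 and 49.5 FPKM. Of the oligodendrocyte markers Mbp was listed, at 24.2 and 24.9, 35.6 and 41.5, and 11.5 and 9.15 FPKM. The 4 bipolar markers tested summed to 40.0 and 48.4, 49.6 and 52.8, and 176 and 175 FPKM, with Isl1, also on the RGC list, at 163 and 164 FPKM in E18. The part of these cells in the results below was not tested.

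The summed level of the members was similar in the 3 groups. It was 1504 and 1521 FPKM in the control libraries, 1592 and 1570 in the miR-1247 libraries and 1577 and 1616 in the E18 libraries. Both control libraries were therefore lowest, by a small margin. Set against the total of all listed values, the order was lost, with 41.1 and 44.7 per 10000 FPKM in control, 43.6 and 40.0 in miR-1247, and 42.4 and 43.2 in E18 libraries. Fewer cells of a type and less RNA per cell cannot be told apart in such bulk samples.

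The balance between the subunits in miR-1247 and in E18 RGCs overlapped that in control RGCs. Mrpl genes summed to 987 and 1050 FPKM in control, 1063 and 1051 in miR-1247, and 1069 and 1119 in E18 libraries. Mrps genes summed to 517 and 471, 529 and 519, and 508 and 497 FPKM in the same order. The ratio of the sums was 2.07 ± 0.225 in control, 2.02 ± 0.0106 in miR-1247 and 2.18 ± 0.103 in E18 RGCs (SD, n = 2). As 49 Mrpl and 29 Mrps genes were summed, the size of this ratio also reflects gene number. The control libraries alone spanned 1.91 to 2.23 and overlapped with both other groups. The E18 libraries, at 2.10 and 2.25, were both above the miR-1247 libraries, at 2.01 and 2.02. The median Mrpl gene was above the median Mrps gene in each of the 6 libraries, at 17.4 to 19.5 against 11.8 to 15.4 FPKM. With subunits assigned by structure the ratios were 2.43 ± 0.226, 2.34 ± 0.0368 and 2.47 ± 0.0530, and the same overlaps and the same separation were seen. No test was made of these sums.

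**Figure D1:**
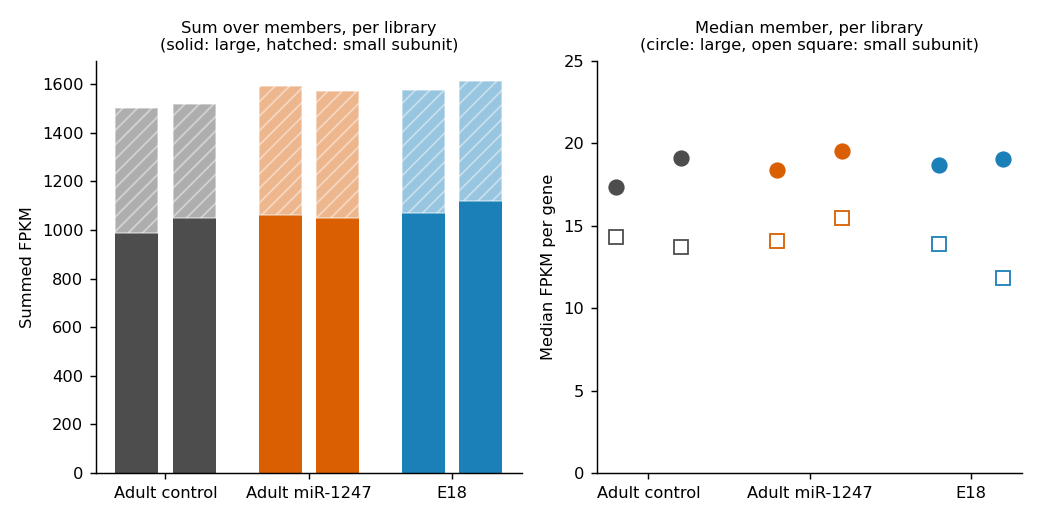
Summed FPKM of the 49 Mrpl (solid) and 29 Mrps genes (hatched) in each library, and the FPKM of the median Mrpl (circles) and Mrps gene (open squares). The sums lie between 1504 and 1616 FPKM, and the median Mrpl gene is above the median Mrps gene in every library.

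The first comparison asks which of these genes differ between embryonic and adult RGCs. Members were divided: 22 were higher in E18 than in adult control RGCs, among them Mrpl21, Mrpl30, Mrpl32 and Mrpl9, 21 were lower, among them Mrps34, Mrpl28, Mrps25 and Mrpl10, and 35 were not called. Differences are of mean log2(FPKM + 1), which understates changes at low levels, and a member is called at a limma adjusted p below 0.05, adjusted over all 9987 features (Benjamini-Hochberg, two-sided). The share called was 55.1% of members against 70.1% of all features tested, with 40.2% of features higher and 29.8% lower. In 57 members, or 73.1%, the E18 and control libraries did not overlap, against 85.5% of features. In 30 of these both E18 libraries were higher, against 49.0% of features, and in 27 lower, against 36.5%. At least 2-fold calls (log2 difference of 1 or more) were 8 higher and 4 lower, 12 in all, where 34.7% of features passed both limits. The median member differed by 0.062 (log2), with single members from -1.85 to 1.54, and the median feature by 0.16.

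Both subunits held calls in both directions. Of 49 Mrpl genes 15 were higher and 13 lower, with a median difference of 0.17. Of 29 Mrps genes 7 were higher and 8 lower, with a median of 0.006. By structure the counts were 15 higher and 14 lower of 51 large-subunit genes and 7 each of 26 small-subunit genes. The difference between the subunits was not tested. Scaling by median ratios moved the median of all features from 0.16 to 0.02 and that of the members from 0.062 to -0.087, so that members stayed 0.10 and 0.11 below it, and the calls became 14 higher and 24 lower. The counts also fell without a library: without E18 library 1 there were 14 higher and 13 lower calls, without E18 library 2 there were 13 lower, and without control library 2 there were 13 lower. Of the 43 calls, 12 higher and 10 lower ones held without each library in turn, and none turned direction.

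**Figure D2:**
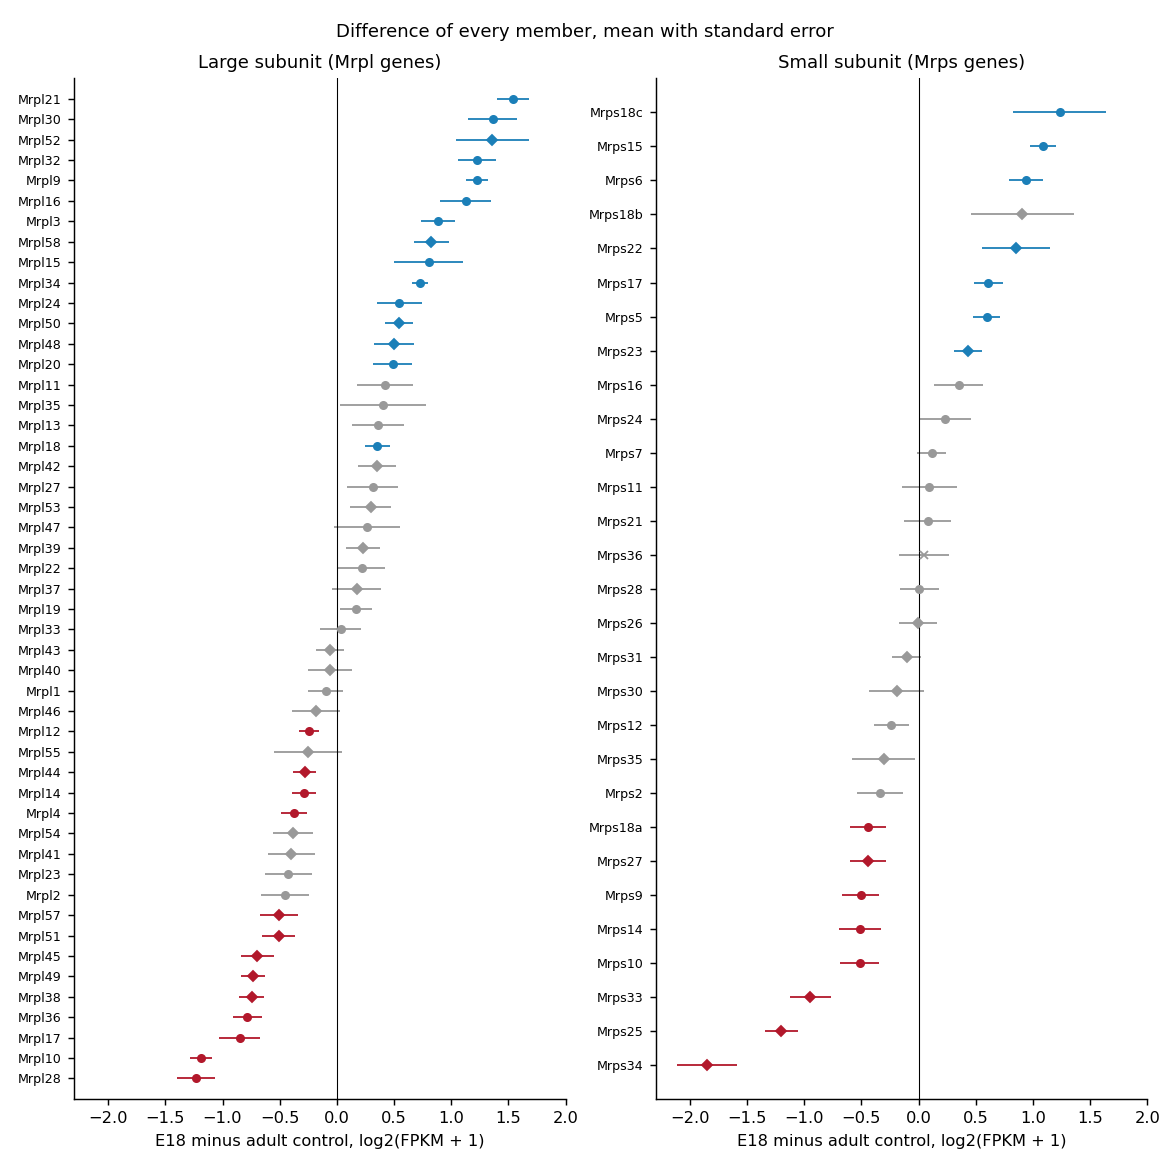
Difference of mean log2(FPKM + 1) between E18 and adult control RGCs for all 78 members, with its standard error, Mrpl genes left and Mrps genes right. Blue marks members higher in E18, red lower and grey not called, while circles mark homologs of bacterial proteins, diamonds mitochondria-specific proteins and the cross Mrps36. Calls of both directions appear in both panels, from -1.85 to 1.54.

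Among the members higher in E18, the 10 with the greatest difference are homologs of bacterial ribosomal proteins except Mrpl52. Mrpl21, a large-subunit protein of this kind, was at 5.55 and 7.10 FPKM in control, 8.69 and 8.37 in miR-1247, and 20.5 and 19.9 FPKM in E18 libraries. It rose in E18 by 1.54 ± 0.141 (log2 difference ± SE, limma adjusted p = 9.78e-05). The E18 libraries were close to each other and well above all 4 adult libraries. Mrpl9, another large-subunit homolog, was at 11.3 and 11.3 FPKM in control, 16.9 and 17.5 in miR-1247, and 27.6 and 28.1 in E18 libraries. The 3 groups did not overlap, and Mrpl9 rose in E18 by 1.23 ± 0.0923 (limma adjusted p = 3.85e-05). Mrpl32 matures through cleavage by the inner-membrane m-AAA protease and is one of the 3 members of lowest mean level. Its libraries read 3.21 and 2.57 FPKM in control, 5.18 and 6.10 in miR-1247, and 8.08 and 8.07 in E18 RGCs, a rise in E18 of 1.23 ± 0.165 (limma adjusted p = 0.000602). As for Mrpl9, the miR-1247 libraries lay between the other groups.

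Mrpl30, a homolog that bacteria and cytoplasmic ribosomes share, was even in control, at 16.5 and 17.2 FPKM, but uneven in E18, at 57.6 and 35.0 FPKM. Both E18 libraries were above every adult library, and the rise was 1.36 ± 0.218 (limma adjusted p = 0.00139). Mrpl52, specific to mitochondria, was at 34.6 and 22.1 FPKM in control and 52.1 and 101 FPKM in E18 libraries, the widest gap of any member within E18. Its rise of 1.36 ± 0.321 (limma adjusted p = 0.00811) was not called without control library 2 (adjusted p = 0.051). Mrpl16 and Mrpl3 contribute to the region around the peptidyl transferase centre, where peptide bonds are made. Mrpl16 was at 4.01 and 6.78 FPKM in control and 12.8 and 12.4 FPKM in E18 (1.13 ± 0.223, limma adjusted p = 0.00372). Mrpl3 was at 9.25 and 7.18 FPKM in control and 15.6 and 16.1 FPKM in E18 (0.88 ± 0.151, limma adjusted p = 0.0019). Neither overlapped between E18 and control.

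In the small subunit, Mrps15, a homolog of a bacterial protein that binds the small ribosomal RNA, was at 13.4 and 11.5 FPKM in control, 14.1 and 15.4 in miR-1247, and 27.3 and 27.7 in E18 libraries. It rose by 1.09 ± 0.115 (limma adjusted p = 0.000187), with all adult libraries far below E18. The locus of Mrps6 also carries the name Slc5a3, the myo-inositol transporter, so its values cannot be assigned to either gene. It read 29.3 and 23.7 FPKM in control and 54.5 and 48.8 FPKM in E18, and rose by 0.94 ± 0.147 (limma adjusted p = 0.00125). The other 9 members called higher, from Mrpl18 at 0.35 to Mrps22 at 0.85, were Mrpl15, Mrpl18, Mrpl24, Mrpl48, Mrpl50, Mrps5, Mrps17, Mrps22 and Mrps23. Of these, Mrps5 and Mrps17 were called without each library in turn, and the other 7 lost the call at least once.

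**Figure D3:**
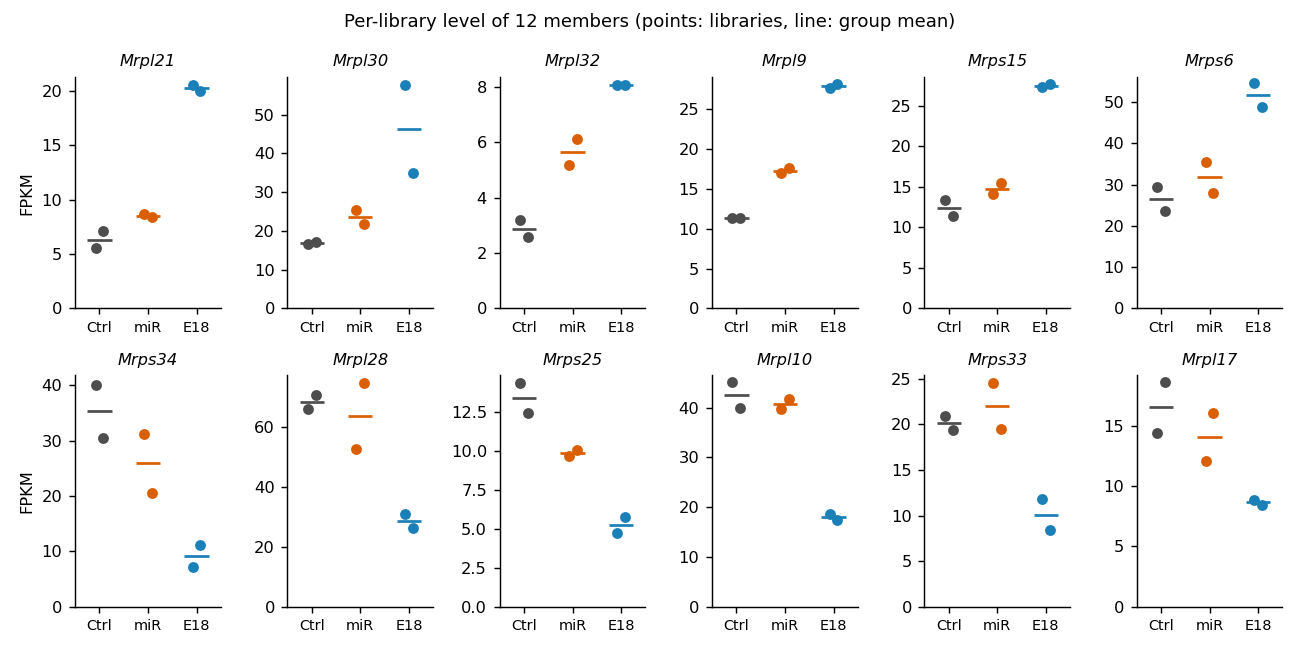
FPKM of 6 members higher in E18 (top) and 6 lower in E18 (bottom) in each library, with control (Ctrl), miR-1247 (miR) and E18 on the x axis; points are libraries and lines group means. For Mrpl21 the E18 points are at 20.5 and 19.9 FPKM against 5.55 and 7.10 in control, and for Mrps34 at 7.14 and 11.2 against 40.1 and 30.5.

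The greatest fall among the members was that of Mrps34, a mitochondria-specific protein needed for a stable small subunit. It was at 40.1 and 30.5 FPKM in control, 31.3 and 20.6 in miR-1247, and 7.14 and 11.2 FPKM in E18 libraries. It fell by 1.85 ± 0.265 on the log2 scale (limma adjusted p = 0.000821), and the E18 libraries were below all adult ones. Mrps25 and Mrps33, also mitochondria-specific small-subunit proteins, fell with it. Mrps25 was at 14.3 and 12.4 FPKM in control, 9.65 and 10.0 in miR-1247 and 4.74 and 5.76 FPKM in E18, a fall by 1.20 ± 0.146 (limma adjusted p = 0.000362). Mrps33 was at 21.0 and 19.4 FPKM in control and 11.8 and 8.40 FPKM in E18, a fall by 0.95 ± 0.180 (limma adjusted p = 0.00314). For both genes the control libraries were close together and above E18.

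In the large subunit, Mrpl10 holds the flexible stalk that recruits translation factors. It was at 45.1 and 39.8 FPKM in control, 39.6 and 41.7 in miR-1247, and 18.7 and 17.4 FPKM in E18 libraries. The adult libraries agreed closely with each other, and the fall in E18 was by 1.19 ± 0.0932 (limma adjusted p = 4.67e-05). Mrpl28 was among the 3 members of highest mean level and has 2 loci at the same coordinates. Their sum was 65.7 and 70.7 FPKM in control and 30.8 and 26.2 FPKM in E18 and fell by 1.23 ± 0.164 (limma adjusted p = 0.000582). The first locus was at 40.5 and 36.2 FPKM in control against 30.4 and 26.2 FPKM in E18, while the second was at 25.2 and 34.5 FPKM against 0.444 FPKM and a listed 0. Most of the difference in the sum therefore lay in the second locus, and how reads were divided between the loci was not tested.

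Of the remaining 5 in this group, Mrpl17 and Mrpl36 are homologs of bacterial proteins, and Mrpl38, Mrpl49 and Mrpl45 are specific to mitochondria. Mrpl17 was at 14.4 and 18.7 FPKM in control and 8.86 and 8.45 FPKM in E18 and fell by 0.85 ± 0.177 (limma adjusted p = 0.00467). Mrpl36 was at 35.8 and 32.1 FPKM in control, 42.2 and 47.5 in miR-1247 and 21.5 and 17.3 in E18, a fall in E18 by 0.78 ± 0.126 (limma adjusted p = 0.00145). Mrpl45, which lies at the exit of the peptide tunnel and anchors the ribosome to the inner membrane, was at 16.3 and 18.7 FPKM in control and 10.5 and 10.3 FPKM in E18 and fell by 0.69 ± 0.141 (limma adjusted p = 0.00423). Mrpl38 fell by 0.74 ± 0.110 and Mrpl49 by 0.73 ± 0.106 (limma adjusted p = 0.000956 and 0.000877). None of these 5 overlapped between E18 and control, but 85.5% of all features did not overlap either, and these genes were picked for their low difference. The other 9 members called lower outside the named genes lay between -0.52 and -0.28, and included Mrpl4, Mrpl14, Mrps10 and Mrps27.

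The Mrps18 family has 3 members that occupy different places, Mrps18a in the large subunit and Mrps18b and Mrps18c in the small subunit. Mrps18a was at 36.3 and 32.0 FPKM in control, 32.6 and 39.0 in miR-1247, and 28.5 and 21.5 FPKM in E18 libraries. Mrps18b was at 1.002 and 4.58, 5.16 and 4.35, and 4.57 and 6.06 FPKM. Mrps18c was at 5.55 and 11.0, 6.85 and 15.5, and 22.7 and 17.3 FPKM. Mrps18a was thus the most abundant of the family in every library. It fell in E18 by 0.45 ± 0.156 (limma adjusted p = 0.0387), while Mrps18c rose by 1.23 ± 0.409 (limma adjusted p = 0.0319). Mrps18b, with the widest gap between control libraries of any member (1.48 on the log2 scale), differed by 0.91 ± 0.449 and was not called (limma adjusted p = 0.112). These calls rest on single libraries. Mrps18a was not called without control library 1 (adjusted p = 0.168), control library 2 (0.061) or E18 library 2 (0.208). Mrps18c was not called without control library 1 (0.169), E18 library 1 (0.179) or E18 library 2 (0.0918), nor under median ratio scaling (0.0517), while Mrps18b was called without control library 2 (0.00249).

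The other stalk proteins did not move together. Mrpl12, which forms the stalk itself and contacts the mitochondrial RNA polymerase, was at 34.4 and 36.7 FPKM in control, 28.2 and 30.9 in miR-1247, and 29.3 and 30.4 FPKM in E18, a fall in E18 by 0.24 ± 0.0856 (limma adjusted p = 0.0386). It was not called without either control library (0.0573 and 0.151) or either E18 library (0.128 and 0.0823). Mrpl11, at the stalk base, was at 17.3 and 29.3 FPKM in control and 26.8 and 34.7 FPKM in E18, with overlapping libraries and no call (0.42 ± 0.243, limma adjusted p = 0.163), but was called without control library 2 (0.784, adjusted p = 0.0133). Mrpl58 is a peptidyl-tRNA hydrolase built into the large subunit, which can free stalled chains. It was at 18.4 and 24.6 FPKM in control, 20.9 and 25.6 in miR-1247, and 38.8 and 38.3 FPKM in E18 and rose there by 0.83 ± 0.156 (limma adjusted p = 0.00302). Mrps30, in the large subunit, was at 9.45 and 7.71 FPKM in control and 8.02 and 6.72 in E18 (-0.19 ± 0.241, limma adjusted p = 0.498). Mrps36 was at 16.3 and 11.2 FPKM in control and 16.8 and 11.6 in E18 (0.045 ± 0.221, limma adjusted p = 0.866). Neither was called, and in both the groups overlapped.

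The most abundant member was Mrps21, a small-subunit homolog of a bacterial protein, at 74.8 and 55.3 FPKM in control, 61.2 and 79.1 in miR-1247, and 58.2 and 79.4 FPKM in E18. The spread within each group exceeded any difference between groups. Mrpl20, which follows Mrpl28, was at 39.0 and 49.8 FPKM in control and 57.8 and 67.0 FPKM in E18, a rise of 0.49 ± 0.170 (limma adjusted p = 0.0375). That call was lost under median ratio scaling (limma adjusted p = 0.119), equal totals (0.097), no variance trend (0.0689) and a replicate block (0.0542). It was also lost without control library 1, E18 library 1 or E18 library 2, where the rise was 0.318, 0.595 and 0.386. The lowest member was Mrpl47, at 2.42 and 4.10 FPKM in control and 3.03 and 5.28 FPKM in E18, which was not called (0.27 ± 0.288, limma adjusted p = 0.434). The median member varied more between libraries of a group than the median feature within the members' range of level. The median gap between the pair of libraries was 0.26, 0.22 and 0.19 (log2) in control, miR-1247 and E18 for members, against 0.15, 0.14 and 0.13 for 8015 features within the same range of mean FPKM. At the upper decile the gaps were 0.63, 0.61 and 0.41 for members against 0.47, 0.43 and 0.42, so in E18 members were not wider there. Transcripts of members were also shorter, with a median of 1812 bases against 3635 over tested genes, and the part of length was not tested. These comparisons are descriptions, with no test.

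Grouped by descent, 16 of 46 homologs of bacterial proteins were higher in E18 and 11 lower, with a median of 0.22. Of 31 mitochondria-specific proteins 6 were higher and 10 lower, with a median of -0.18. Over all features tested 40.2% were higher and 29.8% lower, with a median of 0.16. For the homologs both shares were below that background. For the mitochondria-specific proteins the share of higher calls was well below it and that of lower calls slightly above. By subunit in the structure, large-subunit homologs had 11 higher and 8 lower of 30 and mitochondria-specific ones 4 and 6 of 21, while in the small subunit the counts were 5 and 3 of 16 and 2 and 4 of 10. Mrpl52, Mrpl58, Mrps22, Mrpl48, Mrpl50 and Mrps23 were the 6 mitochondria-specific members that rose. The Mrps18 paralogs were split in this grouping, with Mrps18a and Mrps18c taken as homologs and Mrps18b as mitochondria-specific. Another assignment of Mrps18a, which was called lower, would shift these counts. The difference between the groups was not tested.

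Proteins of the mitochondrial ribosome with other names, and the machinery around it, were followed through fixed lists. Over all features tested 40.2% were higher in E18 and 29.8% lower, with a median of 0.16. Of 6 listed ribosomal proteins with other names, 2 were higher in E18 and 1 lower. Dap3, a GTP-binding small-subunit protein, was at 19.6 and 16.2 FPKM in control and 31.4 and 39.6 FPKM in E18 (0.94 ± 0.225, limma adjusted p = 0.00851). The locus of Chchd1, which also carries the names Fut11 and Sec24c, rose by 1.24 ± 0.0969 and Aurkaip1 fell by 0.47 ± 0.124 (limma adjusted p = 4.54e-05 and 0.0129). Of 26 genes of assembly and ribosomal RNA modification tested, 7 were higher and 2 lower, with a median of 0.31. Both shares were below those of all features. Mettl17, a factor of small-subunit assembly, was at 1.52 and 2.56 FPKM in control and 14.6 and 13.2 in E18 (2.31 ± 0.234), and Mterf3 was at 4.68 and 2.74 against 13.4 and 9.93 FPKM (1.45 ± 0.267). Mettl15, which methylates the small ribosomal RNA, and Mrm1, which methylates the large one, fell by 1.18 ± 0.305 and 0.72 ± 0.170. These 4 differences had a limma adjusted p of 0.000155, 0.00273, 0.012 and 0.00812.

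Of 15 mitochondrial translation factors tested, 8 were higher in E18 and 1 lower, with a median of 0.36. Over all features tested 40.2% were higher and 29.8% lower. Guf1, a GTPase that binds the mitochondrial ribosome, was at 1.94 and 2.93 FPKM in control and 16.7 and 16.8 FPKM in E18, and rose by 2.38 ± 0.193 (limma adjusted p = 5.43e-05). Gfm1, the elongation factor that moves the ribosome along, was the gene that fell, from 14.6 and 14.9 to 5.19 and 6.36 FPKM (-1.22 ± 0.133, limma adjusted p = 0.00022). Of 19 genes of mitochondrial tRNA charging, 6 were higher and 2 lower, both shares below those of all features. Hars2, the histidyl-tRNA synthetase, rose by 1.53 ± 0.237, and Lars2, the leucyl-tRNA synthetase, fell by 2.04 ± 0.0590 from 170 and 171 to 42.5 and 39.2 FPKM (limma adjusted p = 0.0012 and 5.96e-07). Lars2 was far above the other genes of its list in the adult, and the summed list went from 286 and 273 FPKM in control to 173 and 181 FPKM in E18 although more of its genes rose than fell. For contrast, 73 of 76 proteins of the cytoplasmic ribosome were higher in E18 and 1 lower, with a median difference of 1.87. Their sum went from 6438 and 6545 FPKM in control to 20147 and 20751 FPKM in E18. Under median ratio scaling the calls higher and lower in E18 were 6 and 4 for assembly, 5 and 1 for translation factors, 4 and 3 for tRNA charging and 70 and 1 for cytoplasmic ribosomal proteins, and the medians of these lists kept their sign.

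**Figure D4:**
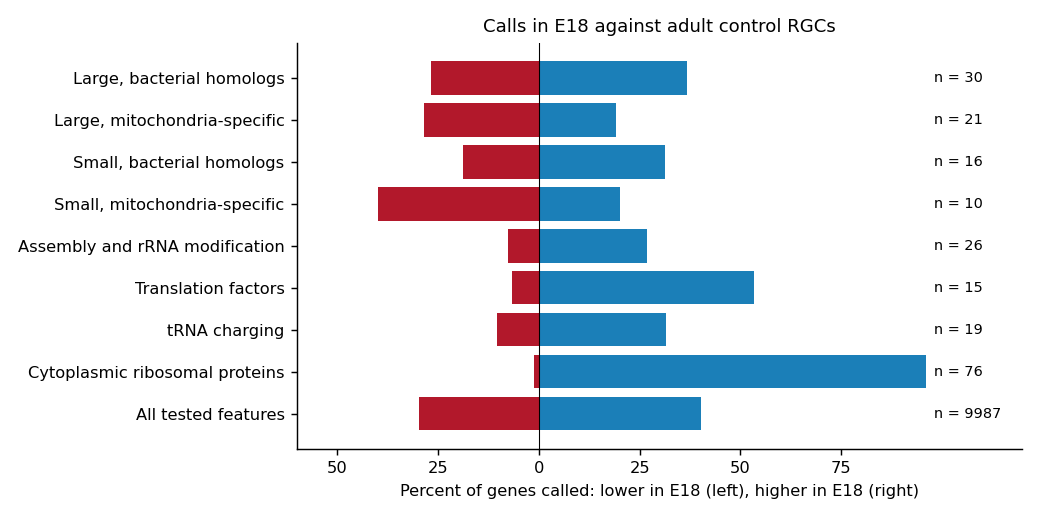
Percent of genes called higher (right, blue) and lower (left, red) in E18 against adult control RGCs, for members by subunit in the structure and by descent, for 3 lists of mitochondrial translation, for cytoplasmic ribosomal proteins and for all 9987 features tested; n is the number tested. Of the 76 cytoplasmic ribosomal proteins 73 are higher, while each group of members has calls in both directions.

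The second comparison asks which members differ between adult RGCs with the miR-1247-5p mimic and adult control RGCs. The mature microRNA is shown because its seed, bases 2 to 8 in capitals, decides which sites it can pair with (RefSeq, GRCm38.p6, chr12:110278094-110278115, minus strand).
mmu-miR-1247-5p: aCCCGUCCcguucguccccgga
Of 78 members, 4 were higher with the mimic and none lower: the large-subunit genes Mrpl34, Mrpl9 and Mrpl32 and the small-subunit gene Mrps28. This is 5.1% of members, against 9.75% of all features tested, 3.53% higher and 6.22% lower (limma, adjusted p below 0.05). At an unadjusted p below 0.05 there were 10 members higher and 10 lower. All features were not counted at that limit, so these 2 counts have no background beside them. The libraries did not overlap in 32 members, or 41.0%, against 57.7% of features. Both mimic libraries were higher in 19 members, against 25.3% of features, and lower in 13, against 32.4%. One call, that of Mrps28, reached 2-fold on the log2 scale, where 1.2% of features passed both limits. The median difference was 0.012 for members, 0.005 for Mrpl and 0.063 for Mrps genes, and -0.029 for all features.

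Mrps28, a small-subunit protein related to bacterial S1, was at 5.99 and 7.80 FPKM in control, 14.1 and 16.1 in miR-1247, and 6.28 and 7.53 FPKM in E18 libraries. It rose with the mimic by 1.04 ± 0.169 (limma adjusted p = 0.0197), and differed by 0.006 ± 0.169 between E18 and control (limma adjusted p = 0.975). High values were thus found in the miR-1247 libraries only, among the 6. Of its 2 loci, the larger carried 5.92 and 7.66 FPKM in control and 13.5 and 15.8 FPKM with the mimic, and the smaller at most 0.625 FPKM. Mrpl34, a small large-subunit homolog of a bacterial protein, was at 31.6 and 32.5 FPKM in control, 52.1 and 48.3 in miR-1247, and 54.0 and 53.3 FPKM in E18. It rose with the mimic by 0.63 ± 0.0719 (limma adjusted p = 0.00782) and in E18 by 0.72 ± 0.0719 (limma adjusted p = 0.00014), with the control libraries below all others.

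Mrpl32 and Mrpl9, whose libraries are given above, rose with the mimic by 0.77 ± 0.165 and 0.56 ± 0.0923 (limma adjusted p = 0.0381 and 0.0197). For Mrpl34, Mrpl9 and Mrpl32 the miR-1247 libraries were above both control libraries and below both E18 libraries. Both comparisons use the same control libraries, so the rises of these 3 genes in E18 and with the mimic are not independent. None of the 4 calls held without each library in turn. Mrpl34 alone lost its call once, without miR-1247 library 1 (adjusted p = 0.0557). Mrps28 had an adjusted p of 0.05 to 0.108, Mrpl9 of 0.0586 to 0.102 and Mrpl32 of 0.0751 to 0.154 over the 6 sets that leave out a library, control and E18 libraries included. With only the 2 adult groups in the fit, Mrpl34 was the 1 call that held.

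**Figure D5:**
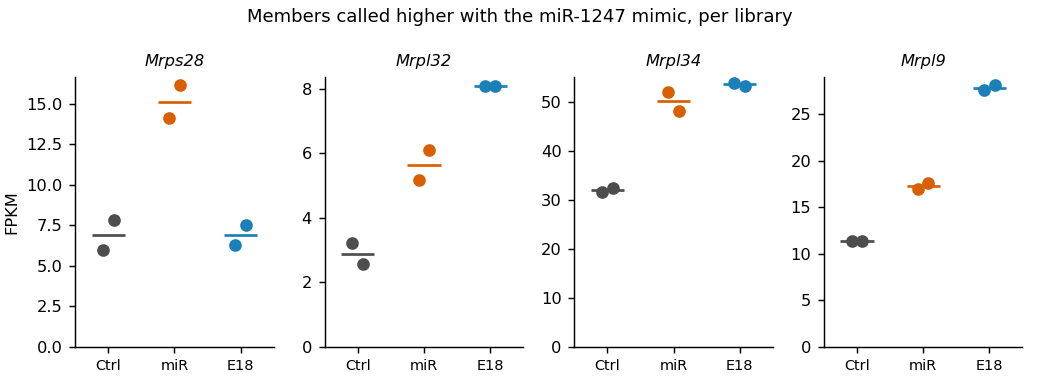
FPKM of the 4 members called higher with the miR-1247-5p mimic, in each library (points) with the group mean (line), for control (Ctrl), miR-1247 (miR) and E18. Mrps28 is high in the miR-1247 libraries alone, at 14.1 and 16.1 FPKM, and the other 3 are also high in E18.

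Members lower in E18 did not show calls with the mimic. Mrps34 differed by -0.45 ± 0.265, Mrps25 by -0.40 ± 0.146, Mrpl10 by -0.059 ± 0.0932 and Mrpl28 by -0.12 ± 0.164 (limma adjusted p = 0.321, 0.13, 0.719 and 0.681). Mrps31, a mitochondria-specific small-subunit protein, has a second locus listed at 0 in the control and E18 libraries and at 0.202 and 0.200 FPKM with the mimic. Its first locus was lower with the mimic, at 6.75 and 6.59 against 8.40 and 9.01 FPKM, and the sum was not called (limma adjusted p = 0.179). Among the translation lists, calls with the mimic were Tufm, the elongation factor that brings tRNAs, and Mrm1. They were 1 of 15 translation factors and 1 of 26 assembly and modification genes tested, where 9.75% of all features were called. Tufm was at 26.6 and 28.9 FPKM in control and 20.3 and 18.0 FPKM in miR-1247 and fell by 0.52 ± 0.0962 (limma adjusted p = 0.0268). Mrm1 was at 6.76 and 6.42 against 3.07 and 3.95 FPKM and fell by 0.76 ± 0.170 (limma adjusted p = 0.0418). Of the 76 cytoplasmic ribosomal proteins 9 were higher and 4 lower with the mimic, against 3.53% of all features higher and 6.22% lower. With equal totals 3 of these proteins were higher and 4 lower.

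A match to the seed, the letters GGACGGG in the 3′ untranslated region of the annotated transcript, was present in 3 of 78 members, or 3.85%, against 3.27% of 9786 tested genes. The median length of that region was 858.5 bases in members and 1489.5 in tested genes, so these shares are not like for like. The sites are shown in capitals with 9 bases on either side, from the GRCm39 genome and GENCODE vM39, because they are the only such matches among the members.
Mrpl49: aaaagacatGGACGGGagtggatga
Mrps18a: ttggagcagGGACGGGagccttacc
Mrps35: ggccaggacGGACGGGaagtagcaa
With the mimic, Mrpl49 differed by 0.25 ± 0.106, Mrps18a by 0.063 ± 0.156 and Mrps35 by -0.31 ± 0.276, and none was called (limma adjusted p = 0.186, 0.827 and 0.511). Mrps35 was at 9.88 and 7.64 FPKM in control and 5.10 and 9.06 FPKM with the mimic, so its groups overlapped. The 4 members that rose with the mimic hold no such match. A match is a string of letters, not a shown binding site.

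Promoters were read from 250 bases before to 50 after the annotated start of each member (GRCm39, GENCODE vM39) and searched on both strands for 3 strings linked with mitochondrial genes: GCATGCGC for NRF1, CCGGAAG for ETS factors such as GABPA, and AAGATGGC for YY1. The ETS string was in 24 of 78 members, or 30.8%, against 16.6% of 9855 tested genes and 10.3% of all protein-coding genes. The NRF1 string was in 7 members, or 8.97%, against 5.45% of tested genes, and the YY1 string in 6, or 7.69%, against 3.81%. Members higher and lower in E18 held the ETS string in 8 of 22 and 7 of 21. The NRF1 string was in 2 of 22 and 1 of 21, and the YY1 string in 1 of 22 and 2 of 21. The 4 promoters below are shown because they belong to the member with the greatest fall, to Mrpl10, and to 2 of the members that rose in both comparisons, with the strings found in capitals.
Mrps34, chr17:25113822-25114121, plus strand: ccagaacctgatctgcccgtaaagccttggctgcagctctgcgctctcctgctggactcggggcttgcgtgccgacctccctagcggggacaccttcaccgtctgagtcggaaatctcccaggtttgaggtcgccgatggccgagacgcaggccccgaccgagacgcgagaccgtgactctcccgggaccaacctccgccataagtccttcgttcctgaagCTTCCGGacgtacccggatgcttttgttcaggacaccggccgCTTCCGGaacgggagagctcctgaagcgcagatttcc
Mrpl10, chr11:96932122-96932421, plus strand: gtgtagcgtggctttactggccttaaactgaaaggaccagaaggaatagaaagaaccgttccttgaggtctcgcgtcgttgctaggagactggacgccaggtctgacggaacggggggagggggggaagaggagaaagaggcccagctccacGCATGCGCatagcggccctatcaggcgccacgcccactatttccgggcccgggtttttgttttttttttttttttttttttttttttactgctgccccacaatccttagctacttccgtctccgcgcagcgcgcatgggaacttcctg
Mrpl34, chr8:71917305-71917604, plus strand: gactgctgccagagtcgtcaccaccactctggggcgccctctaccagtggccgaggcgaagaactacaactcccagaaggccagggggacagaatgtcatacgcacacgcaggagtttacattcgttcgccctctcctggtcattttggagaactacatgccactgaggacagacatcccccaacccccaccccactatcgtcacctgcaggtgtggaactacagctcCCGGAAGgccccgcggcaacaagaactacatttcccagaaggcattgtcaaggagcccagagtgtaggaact
Mrpl9, chr3:94350344-94350643, plus strand: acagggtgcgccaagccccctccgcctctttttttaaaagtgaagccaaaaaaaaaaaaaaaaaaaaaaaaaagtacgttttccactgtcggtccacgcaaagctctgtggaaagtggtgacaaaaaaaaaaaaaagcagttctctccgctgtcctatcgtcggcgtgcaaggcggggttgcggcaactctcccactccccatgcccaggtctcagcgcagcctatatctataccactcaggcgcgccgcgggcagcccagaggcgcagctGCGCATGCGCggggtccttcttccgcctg
Mrps34 and Mrpl34 hold the ETS string and Mrpl10 and Mrpl9 the NRF1 string, which in Mrpl9 overlaps its own reverse complement. The promoters shown were picked by the values of their genes, and none of them holds the YY1 string. Whether the strings go with direction was not tested. Such a match describes letters only and shows no binding.

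Neighbouring genes limit the values of some members. Of the 78, 28 share locus coordinates with another entry, and the TruSeq kit named in the labels does not mark strand, so reads of overlapping genes may be shared. Some neighbours moved with their members and others did not. In E18, Isg20l2 and Rrnad1 rose with Mrpl24, Tcp1 with Mrpl18 and Copb2 with Mrps22. At the coordinates of Mrps18b, which was not called, Atat1 rose from 14.0 and 12.9 FPKM in control to 162 and 154 FPKM in E18. At the coordinates of Mrpl9, Tdrkh was at 25.4 and 24.9 FPKM in control, 15.5 and 20.8 in miR-1247 and 25.3 and 30.9 FPKM in E18. At those of Mrpl10, Osbpl7 was at 3.60 and 2.25 FPKM in control and 6.06 and 4.89 in E18, and at those of Mrpl17, Dchs1 rose from 3.28 and 3.29 to 18.9 and 20.5 FPKM. At those of Mrps28, Tpd52 was at 41.1 and 46.7 FPKM in control and 36.0 and 33.9 with the mimic.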

How the data were processed

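Poly-A RNA of 6 mouse RGC libraries was measured. Per the submitters' processing notes, the authors used HISAT2 and the mm39 build for paired reads of 100 bases, and Cufflinks with Cuffdiff for FPKM, no version being named. An offset of 1e-05 in each deposited FPKM was removed. The deposited log2 ratios of group means were used only to check the columns and differed from recomputed ones by at most 0.014. The filter behind the 11104 listed entries is not given in the sources used here.

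Loci of a gene name were summed, names of 1 locus were taken once (A/B), and features with a mean of at least 1 FPKM were kept (9987 of 10162). One model of log2(FPKM + 1) with 3 group means was fitted to all 6 libraries in limma 3.58.1 (R 4.3.3), with a variance trend and Benjamini-Hochberg adjustment. The script was tested on simulated data. Alternatives were another pseudocount (0.1), other filters, scalings, separate loci, no variance trend, 2 groups, a replicate block and each library left out. Sequences came from GRCm39 with GENCODE vM39 and, for the microRNA, RefSeq. Other steps used pandas 2.3.3 and NumPy 2.4.6 under Python 3.11.15, with figures from Matplotlib 3.10.9.

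Members and lists were chosen with earlier results of these data known. Named members are the 10 highest and 10 lowest called in E18, every member called with the mimic, any at 0, Mrps18a, Mrps18b, Mrps18c, Mrps30, Mrps36, Mrpl10, Mrpl11, Mrpl12 and Mrpl58, the 3 highest and 3 lowest by mean FPKM, and those whose loci differ in direction. From each list at most the 2 called genes with the highest and lowest difference are named. Members, sites and neighbours named beyond this were chosen after their values were seen.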

Additional observations from a re-analysis of the deposited data

How the results depend on the processing

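The counts and medians depend on scaling and on single libraries. Under median ratio scaling, 14 members were higher in E18, the median difference was 0.033 for Mrpl and -0.129 for Mrps genes, and with the mimic it was 0.038 for Mrpl genes. With equal totals the Mrpl median was 0.099 in E18 and -0.093 with the mimic. With only the 2 groups compared, 1 member was higher with the mimic. Leaving out each library gave 14 to 23 members higher and 13 to 21 lower in E18, medians of -0.02 to 0.173 (Mrpl) and -0.118 to 0.006 (Mrps), and with the mimic 0 to 1 higher and an Mrpl median of -0.032 to 0.086. The cause was not tested.

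Over all features, 4019 were higher and 2979 lower in E18, against 3408 and 3424 under median ratio scaling. With the mimic 353 were higher and 621 lower, against 456 and 532 under median ratio scaling, 136 and 771 with equal totals, 107 and 236 without the variance trend, 125 and 222 in a fit of the 2 groups alone, and 35 to 78 and 86 to 165 without a library. Replicate numbers did not pair the libraries (r of deviations -0.0081, -0.0018 and 0.0035). A replicate block gave 20 members higher and 19 lower in E18 and 4 higher with the mimic, 3 of them shared and Mrpl32 lost, and 206 and 378 features with the mimic. With a pooled spread, a lone library is assumed to vary like the others.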

Other observations

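Genes that regulate the making of mitochondria moved in both directions between E18 and adult control RGCs. Of 8 tested, 3 were higher in E18 and 3 lower, where 40.2% of all features were higher and 29.8% lower. Myc, a growth regulator, was at 0.703 and 1.72 FPKM in control and 13.2 and 12.9 FPKM in E18 (2.71 ± 0.246, limma adjusted p = 9.53e-05). Ppargc1a, a coactivator of mitochondrial genes, was at 9.18 and 9.40 FPKM in control and 1.29 and 1.25 FPKM in E18 (-2.18 ± 0.146, limma adjusted p = 2.24e-05). Control and E18 libraries did not overlap for either gene. With the mimic none of the 8 was called by limma, where 9.75% of all features were called. Under median ratio scaling 2 were higher and 3 lower in E18.

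Of 11 genes of mitochondrial transcription and DNA maintenance, 5 were higher in E18 and 1 lower, against 40.2% and 29.8% of all features. Their median was 0.115 and turned to -0.02 under median ratio scaling. Polrmt, the mitochondrial RNA polymerase, was at 4.23 and 3.11 FPKM in control and 8.74 and 9.06 FPKM in E18 (1.09 ± 0.206, limma adjusted p = 0.00299). Tfb2m, which works with it at promoters, was at 21.9 and 15.7 FPKM in control and 6.73 and 5.37 FPKM in E18 (-1.48 ± 0.221, limma adjusted p = 0.00101). Polg2, the accessory subunit of the mitochondrial DNA polymerase, was at 2.29 and 2.30 FPKM in control and 0.688 and 0.722 FPKM with the mimic (-0.95 ± 0.195, limma adjusted p = 0.0347).

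One value was singled out after it was seen. Dhx30, a helicase of mitochondrial ribosome assembly, was at 105 FPKM in miR-1247 library 1 and at 22.2 to 33.1 FPKM in the other 5 libraries.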
